A study of Mus musculus with 24 samples.

Results

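Interleukins and interferons, with the receptor chains that bind them, made up 83 of the 909 mouse genes that could be named on a focused glycobiology array hybridised with retinal RNA. They were taken by symbol: every gene whose name starts with Il and a digit, with Ifn or with Tnf, each represented by its probe set with the highest mean signal. The names gave 73 interleukin genes and 10 interferon genes, of which 39 encode ligands and 44 encode receptor chains or binding proteins. No probe set was matched to a gene with a Tnf name, so TNF ligands and receptors are not analysed here.

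The retinas came from normal mice, labelled P347S-, and from retinitis pigmentosa (RP) mutant mice, labelled P347S+, which carry a transgene for rhodopsin with the P347S change. Both genotypes were sampled monthly from 1 to 4 months of age, with 3 arrays at each age, giving 8 groups and 24 arrays. Sex was labelled unknown, and the strain, the promoter that drives the transgene and whether an array holds 1 animal or a pool are not given in the sources used here, so p-values measure the spread between arrays, which may be technical. In this line, per the series' design text, degeneration is barely visible at the first age and many rods have gone by the last, and the study asked which glycan-related genes change at early, middle and late stages. The comparisons below are mutant against normal at each age and over the 4 ages, and age within each genotype.

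Interleukins and interferons are secreted messengers of immune and glial cells. Most act through receptors built from different chains: a chain that binds the ligand and a signalling chain that several ligands share, such as gp130 for the IL-6 family, the common gamma chain for IL-2 and IL-7, and the IL-10 receptor beta chain for IL-10, IL-22 and type III interferons. Some chains are decoys that bind a cytokine without passing on a signal. In the retina, microglia and Müller glia are the cells best known for answering these messengers when photoreceptors die.

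Values are log2 signals made with RMA, so a difference of 1 is a doubling. A gene was called higher or lower where limma's adjusted p over all 1246 probe sets was under 0.05. A signal carries no detection call here. Levels of different probe sets were used to pick the brightest of a gene, to rank mean signals and to sum markers. They were not used to say which of several genes is more abundant. In whole retina, a change in the number of cells that make an RNA and a change in the RNA per cell cannot be told apart.

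The tissue check could use few markers. Of 11 rod markers the array measured Gnb1, a transducin subunit, which was lower in mutants by −0.21 ± 0.06 (SE, n = 12 arrays per genotype; limma adjusted p = 0.0121), and cone markers were not measured. The 5 measured of 17 microglial and macrophage markers had a summed log2 signal of 8.04 to 8.41 in normal and 8.69 to 9.68 in mutant arrays, without overlap, and 4 of the 5 were called higher. The lens gene Grifin stood above a log2 signal of 10 on 3 arrays: normal 2 months replicate 2 (11.33), mutant 2 months replicate 2 (11.29) and normal 4 months replicate 1 (10.16), against 5.69 to 8.77 on the other 21. The stromal gene Dcn was highest in normal 2 months replicate 3 (6.90).

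Promoter sequences of members that rose in mutants are shown first, so that they can be read beside the values below. RefSeq windows of 300 bases around the start site (build GRCm38.p6) were found for 68 of the 83 members, among them 9 of the 10 that rose and 2 of the 4 that fell over the 4 ages. They were searched on both strands for 4 motifs of factors that act downstream of these receptors: the interferon-stimulated response element (ISRE), the STAT-binding GAS element (TTCNNNGAA), the AP-1 element (TGANTCA) and the kappa B consensus. Stretches before the start site are printed 5′ to 3′ on the gene's strand. Capitals mark the match of 5 members that rose: a GAS match in Ifnar2, chr16:91372533-91372617 (plus strand), and Il1r2, chr1:40085942-40086030 (plus strand), a kappa B match in Il1r1, chr1:40266336-40266403 (plus strand), and an AP-1 match in Il13ra2, chrX:147429339-147429425 (minus strand), and Il1a, chr2:129309973-129310024 (minus strand). Of the fallen members with a window, Il31ra also held a GAS match, not printed here.
Ifnar2: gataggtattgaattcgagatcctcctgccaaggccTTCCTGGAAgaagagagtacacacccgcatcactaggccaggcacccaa
Il1r2: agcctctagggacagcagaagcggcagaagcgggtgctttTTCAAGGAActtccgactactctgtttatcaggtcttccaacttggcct
Il1r1: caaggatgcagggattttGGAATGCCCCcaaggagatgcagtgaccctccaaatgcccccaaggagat
Il13ra2: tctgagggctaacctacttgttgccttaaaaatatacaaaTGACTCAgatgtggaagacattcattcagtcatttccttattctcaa
Il1a: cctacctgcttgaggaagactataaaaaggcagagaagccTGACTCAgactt

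A GAS match was present in 17.6% of the 68 member windows and in 8.47% of all 27025 windows. An AP-1 match was present in 16.2% against 7.93%, a kappa B match in 10.3% against 4.35%, and an ISRE match in 4.41% against 3.49%. The windows of Il6st, Il17rd, Il18, Il33 and Il17c held none of the 4 motifs. The same windows differed in CpG content, which is high in promoters of broadly active genes: the median was 4.5 CpG for members, 7 for all genes and 16 for the 708 genes of the array with a window. Ligand windows had a median of 3 CpG, with 15 or more in 1 of 31, and receptor windows a median of 7, with 15 or more in 14 of 37. Il6st, with 33 CpG in its window, and Il33, with 6, show the contrast in the 100 bases before the start site, printed with CG in capitals, at chr13:112463970-112464069 (plus strand) for Il6st and chr19:29925013-29925112 (plus strand) for Il33.
Il6st: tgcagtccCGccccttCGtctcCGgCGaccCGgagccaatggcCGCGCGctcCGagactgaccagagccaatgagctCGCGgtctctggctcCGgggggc
Il33: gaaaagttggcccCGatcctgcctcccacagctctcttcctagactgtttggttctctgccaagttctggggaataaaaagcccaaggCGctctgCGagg

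Over the 4 ages, the 10 members that rose in mutant retinas were 7 receptor chains and 3 IL-1 family ligands. The gp130 chain Il6st, the shared chain Il10rb, the IL-1 receptor Il1r1 and the type I interferon receptor chain Ifnar2 rose by 0.34 to 0.41 log2 units, and the alarmin Il33 rose by 0.45 ± 0.10 (SE; limma adjusted p = 0.00332). In all, 10 of the 83 members were called higher (12%; 13.8 percent of all 1246 probe sets) and 4 lower (4.82%; 8.83 percent of all), and 69 were not called. The share called in either direction, 16.9%, lay below the 22.6 percent of all probe sets, and the members' median difference, −0.03, equalled that of all probe sets. By role, 7 of 44 receptor chains were called higher and 2 lower, and of 39 ligands 3 were called higher and 2 lower. Beside these stand the same 13.8 percent higher and 8.83 percent lower of all probe sets. The median difference was −0.02 for receptor chains and −0.03 for ligands, beside −0.03 for all probe sets. With each array centred on its median, the calls were 14 higher and 3 lower.

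**Figure D1:**
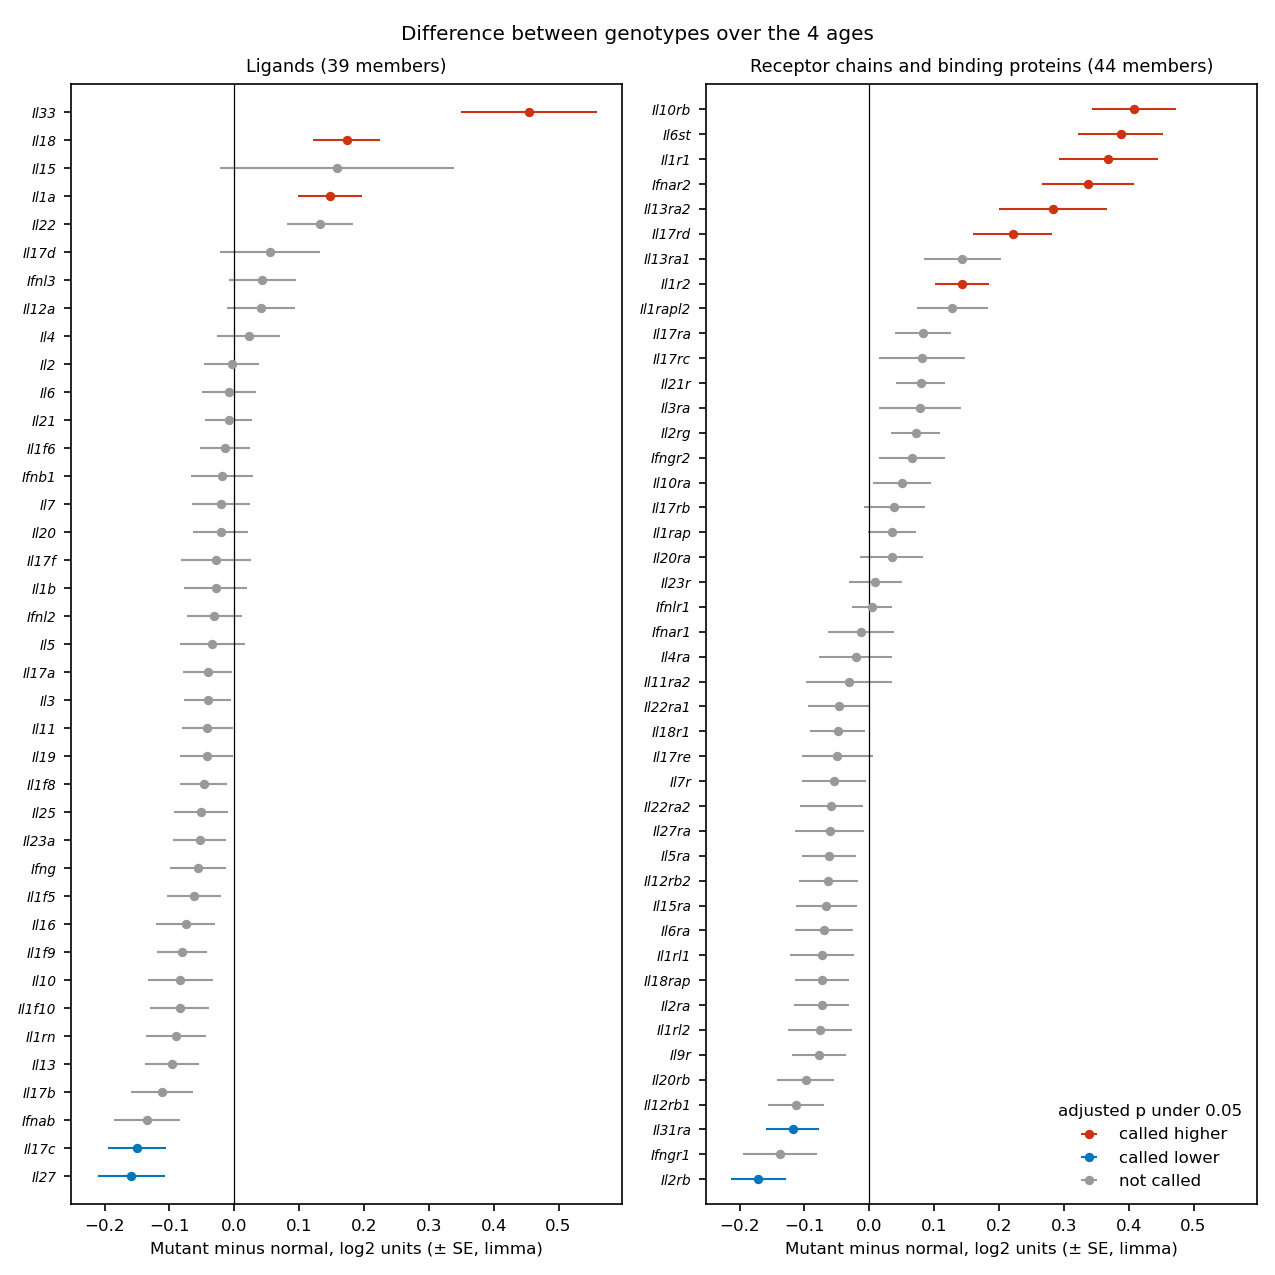
Mutant minus normal difference of each of the 83 members over the 4 ages, in log2 units, with 39 ligands on the left and 44 receptor chains and binding proteins on the right. Points are limma estimates with bars of 1 SE and colours give the call at an adjusted p under 0.05; Il33 stands alone among the ligands at 0.45, while 4 receptor chains lie between 0.34 and 0.41.

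Calls were more frequent among brighter probe sets, for members as for the whole array. Of 31 members up to the 25th percentile of mean signal (log2 3.83), 2 were called, Il13ra2 and Il1a, or 6.45%, against 7.07 percent of all probe sets in that band. Between there and the median (log2 5.26) 5 of 30 were called (16.7%; 17.9 percent of all), and above the median 7 of 22 (31.8%; 32.7 percent of all). In each band the members' share lay close to the background. A difference with 1 sign at all 4 ages was seen for 18 members (21.7%; 32.0 percent of all), 8 of them among the 14 called.

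Among the 10 IL-1 family ligands, Il33, Il18 and Il1a were called higher over the 4 ages and none lower. Beside this and the family counts below stand 13.8 percent higher and 8.83 percent lower of all probe sets. Each family holds few genes. Il33 is an alarmin kept in the nucleus and released from damaged cells. At 4 months its log2 signal was 8.49, 8.52 and 8.43 in normal and 9.07, 9.25 and 9.35 in mutant retinas, so that the arrays did not overlap (0.74 ± 0.21, SE; 1.67-fold; limma adjusted p = 0.0217). At 3 months normal arrays read 8.75, 7.92 and 8.52 and mutant arrays 9.00, 9.00 and 8.98, again apart, but the difference of 0.60 ± 0.21 missed the threshold (limma adjusted p = 0.0696). The spread lay in the normal group: its SD was 0.43 at 3 and 0.58 at 2 months, where the genotypes overlapped, against 0.01 and 0.14 in mutants.

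Il18, a cytokine matured by the inflammasome, differed by 0.17 ± 0.05 (SE; limma adjusted p = 0.0196) over the 4 ages. Its 4-month arrays read 7.22, 6.92 and 7.07 in normal and 7.38, 7.40 and 7.25 in mutant retinas, without overlap but with an adjusted p of 0.0918 by limma at that age alone. Its probe set may also match another transcript of the gene, and the gene overlaps Bco2 and Tex12. Il1a, an IL-1 that acts on Il1r1, rose by 0.15 ± 0.05 (limma adjusted p = 0.0348) from a low signal, with 3.62, 3.55 and 3.55 in normal and 3.77, 3.72 and 3.78 in mutant retinas at 3 months. Its call held in 12 of 24 fits that left out 1 array, with limma adjusted p from 0.0060 to 0.0720.

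Il1b, the IL-1 most often followed in neuroinflammation, was not called: its log2 signal ran from 4.29 to 4.79 in normal and from 4.29 to 4.64 in mutant arrays, and the difference was −0.03 ± 0.05 (SE; limma adjusted p = 0.695). The IL-1 antagonist Il1rn differed by −0.09 ± 0.05 (adjusted p = 0.170). Il1f9, an IL-36 ligand, was called at 3 months alone, with 3.65, 3.73 and 3.51 in normal and 3.34, 3.36 and 3.32 in mutant retinas (−0.29 ± 0.08; limma adjusted p = 0.0209).

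Of the 8 IL-1 family receptors, Il1r1 and Il1r2 rose and none fell over the 4 ages. Il1r1 transmits the IL-1 signal. Its arrays read 6.15, 5.97 and 6.17 in normal and 6.43, 6.56 and 7.28 in mutant retinas at 3 months, and 6.05, 6.28 and 6.34 against 7.02, 6.65 and 6.56 at 4 months. Mutant arrays lay above all normal ones at both ages, with differences of 0.66 ± 0.15 (SE; limma adjusted p = 0.00886) and 0.52 ± 0.15 (0.0263). The highest reading belonged to mutant 3 months replicate 3, and without it the difference at 3 months was the smallest of the fits that left out 1 array, 0.40, and still called.

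Il1r2, the decoy that takes up IL-1 without signalling, was higher by 0.14 ± 0.04 (SE; limma adjusted p = 0.0162), with its largest difference at 4 months: 4.52, 4.72 and 4.50 in normal against 5.02, 4.89 and 4.81 in mutant retinas (0.32 ± 0.08; adjusted p = 0.0108). The IL-33 receptor Il1rl1 ran from 3.77 to 4.36 in normal and from 3.79 to 4.08 in mutant arrays and was not called (−0.07 ± 0.05; limma adjusted p = 0.307). The IL-18 receptor Il18r1 read 2.96, 3.06 and 2.88 in normal and 2.73, 2.66 and 2.73 in mutant retinas at 3 months (−0.26 ± 0.08; limma adjusted p = 0.0493), a call that held in 6 of 24 fits without 1 array (adjusted p from 0.0282 to 0.182). While Il33 and Il18 rose, no chain of their receptors (Il1rl1, Il1rap, Il18r1 and Il18rap) was called higher at any age.

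Of the 8 receptors of the gp130 and IL-6/IL-12 families, Il6st rose and Il31ra fell over the 4 ages. Il6st encodes gp130, the signalling chain for IL-6, IL-11, LIF and CNTF. At 1 month it read 8.63, 8.42 and 8.74 in normal and 9.14, 9.13 and 9.08 in mutant retinas, the largest difference of any member at that age (0.52 ± 0.13, SE) though not called (limma adjusted p = 0.0903). At 2 months the genotypes overlapped, with 8.38, 8.72 and 8.89 against 8.76, 8.61 and 8.48.

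Mutant arrays stood apart again at the later ages. Il6st read 8.92, 8.46 and 8.61 in normal and 9.22, 9.03 and 9.38 in mutant retinas at 3 months (0.55 ± 0.13, SE; limma adjusted p = 0.0115), and 8.69, 8.94 and 8.63 against 9.37, 9.25 and 9.22 at 4 months (0.53 ± 0.13; 0.00916). Its ligand-binding partners were not called higher, and Il6ra, the IL-6 receptor, was lower at 3 months, with 6.09, 6.04 and 5.86 in normal and 5.85, 5.69 and 5.56 in mutant retinas (−0.30 ± 0.09; limma adjusted p = 0.0329). With the mean of all Il6ra probe sets in place of the brightest, that difference was −0.19 and was not called.

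Il31ra, a chain of the IL-31 receptor, was lower by −0.12 ± 0.04 (SE; limma adjusted p = 0.0419) and differed most at 1 month, where 4.40, 4.39 and 4.62 in normal stood above 4.28, 4.14 and 4.15 in mutant retinas. This call was the least stable of the 14: it was lost in 5 of 10 alternative analyses and in 15 of 24 fits that left out 1 array (adjusted p from 0.0205 to 0.0824). Il12rb1, shared by the IL-12 and IL-23 receptors, was lower at 3 months (4.93, 4.81 and 4.65 in normal, 4.53, 4.33 and 4.59 in mutant; −0.31 ± 0.09, SE; limma adjusted p = 0.0244).

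Among the 5 ligands of these families Il27 was lower and none was higher. Il27 encodes a subunit of IL-27, and at 3 months it read 6.37, 6.53 and 6.22 in normal against 6.12, 6.07 and 5.91 in mutant retinas (−0.34 ± 0.10, SE; limma adjusted p = 0.0379). The gene overlaps Apobr, and its call over the 4 ages (−0.16 ± 0.05; adjusted p = 0.0297) held in 15 of 24 fits that left out 1 array (0.0120 to 0.0627). Il6 itself ran from 2.28 to 2.63 in normal and from 2.25 to 2.63 in mutant arrays, and its difference of −0.01 ± 0.04 (limma adjusted p = 0.899) changed sign with the scaling of the arrays.

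In the IL-10 family, the shared chain Il10rb rose among 6 receptors, and none of the 4 ligands was called. Il10rb read 5.66, 5.58 and 5.67 in normal and 6.27, 6.13 and 6.66 in mutant retinas at 3 months (0.72 ± 0.13, SE; 1.65-fold; limma adjusted p = 0.00174), and 5.52, 5.77 and 5.64 against 6.29, 6.14 and 6.21 at 4 months (0.57 ± 0.13; 0.00519). Normal and mutant arrays did not overlap at 1, 3 and 4 months, while at 2 months normal arrays reached 6.17 and the difference was −0.01 ± 0.13. The suffix of its probe set marks probes that other transcripts may share.

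Il22 was the ligand of this family with the smallest p, differing by 0.13 ± 0.05 (SE; limma adjusted p = 0.0643), and its mutant arrays stood above the normal ones at 3 months (5.56 to 5.72 in normal, 5.87 and above in mutant). Il10, an anti-inflammatory cytokine, was not called over the 4 ages (−0.08 ± 0.05; adjusted p = 0.243).

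Among 5 interferon receptor chains Ifnar2 rose, and no interferon was called. Ifnar2 is the chain of the type I interferon receptor that binds interferons alpha and beta most tightly. At 4 months it read 6.39, 6.42 and 6.08 in normal and 7.17, 6.84 and 6.72 in mutant retinas (0.61 ± 0.14, SE; 1.53-fold; limma adjusted p = 0.00611), and at 3 months 6.63, 6.28 and 6.43 against 6.64, 6.84 and 7.18 (0.44 ± 0.14; 0.0493). The groups did not overlap at either age, although at 3 months the nearest arrays were 6.63 and 6.64 and the call held in 8 of 24 fits without 1 array (adjusted p from 0.0209 to 0.223). Ifngr1, the binding chain for interferon gamma, differed by −0.14 ± 0.06 and was not called (adjusted p = 0.0884).

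Ifnb1, the gene for interferon beta, ran from 3.76 to 4.12 in normal and from 3.69 to 4.04 in mutant arrays (−0.02 ± 0.05, SE; limma adjusted p = 0.797), and its sign changed with the scaling. Ifng ran from 2.57 to 2.94 and from 2.49 to 2.75 (−0.06 ± 0.04; adjusted p = 0.366). Ifnab, a type I interferon with near-identical copies in the genome, had the smallest p of the 5 (−0.13 ± 0.05; 0.0638), and its probe set carries the suffix for probes that match other transcripts. A further Ifnab probe set without that suffix differed by −0.03 ± 0.05 (limma adjusted p = 0.679).

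In the common gamma chain and IL-3, IL-5 and IL-13 group, 1 of 12 receptors rose, 1 fell, and none of 8 ligands was called over the 4 ages. Il13ra2, a decoy receptor for IL-13, showed the largest difference of any member at a single age. Its log2 signal at 4 months was 3.34, 3.47 and 3.20 in normal and 4.67, 3.65 and 4.22 in mutant retinas, all mutant arrays above all normal ones (0.84 ± 0.17, SE; 1.79-fold; limma adjusted p = 0.00189). At 1 month the arrays overlapped, with 2.93, 2.86 and 3.13 against 3.19, 2.97 and 2.89.

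Between 1 and 4 months Il13ra2 rose within the mutants by 1.17 ± 0.17 (SE; 2.24-fold; limma adjusted p = 0.000921), the only member called for age in mutants, where 2.65 percent of all probe sets were called, 1.52 higher and 1.12 lower. In normal retinas the same comparison gave 0.36 ± 0.17 (adjusted p = 0.637). The test of whether the genotype difference changed with age did not pass for Il13ra2 (F test, limma adjusted p = 0.201). Its signal lay at the 15.1 percentile of all probe sets, and the SD of the mutant arrays at 4 months, 0.52, was the widest of its 8 groups.

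Il2rb, the chain that IL-2 and IL-15 receptors share, was the member with the largest fall. At 3 months it read 4.11, 4.29 and 3.88 in normal and 3.70, 3.65 and 3.66 in mutant retinas, without overlap (−0.42 ± 0.08, SE; limma adjusted p = 0.00344), and over the 4 ages it was lower by −0.17 ± 0.04 (0.00575). At 1 month the genotypes overlapped and the difference was 0.01 ± 0.08. Il5, the eosinophil growth factor, was lower at 3 months (3.66, 3.82 and 3.70 in normal, 3.54, 3.19 and 3.49 in mutant; −0.32 ± 0.10; limma adjusted p = 0.0405), a call lost in 5 of 10 alternative analyses, the replicate block among them, and in 6 of 24 fits without 1 array (adjusted p up to 0.209). Il13 had the smallest p of the 8 ligands over the 4 ages (−0.10 ± 0.04; adjusted p = 0.101).

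In the IL-17 family, Il17rd rose among 5 receptors and Il17c fell among 6 ligands. Il17rd, also known as Sef, is an inhibitor of growth factor signalling as well as an IL-17 receptor. Its 4-month arrays read 4.57, 4.43 and 4.57 in normal and 5.04, 4.76 and 5.03 in mutant retinas (0.42 ± 0.12, SE; limma adjusted p = 0.0259). Il17c, a cytokine of epithelia, read 4.19, 4.20 and 4.10 in normal and 3.95, 3.87 and 3.89 in mutant retinas at 3 months, and the genotypes were also apart at 4 months. Over the 4 ages Il17c was lower by −0.15 ± 0.04 (limma adjusted p = 0.0173), a call lost under a further quantile normalization (adjusted p = 0.0555), as was that of Il18 (0.173). Il16, which belongs to no family above, was not called (−0.07 ± 0.05; adjusted p = 0.249).

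**Figure D2:**
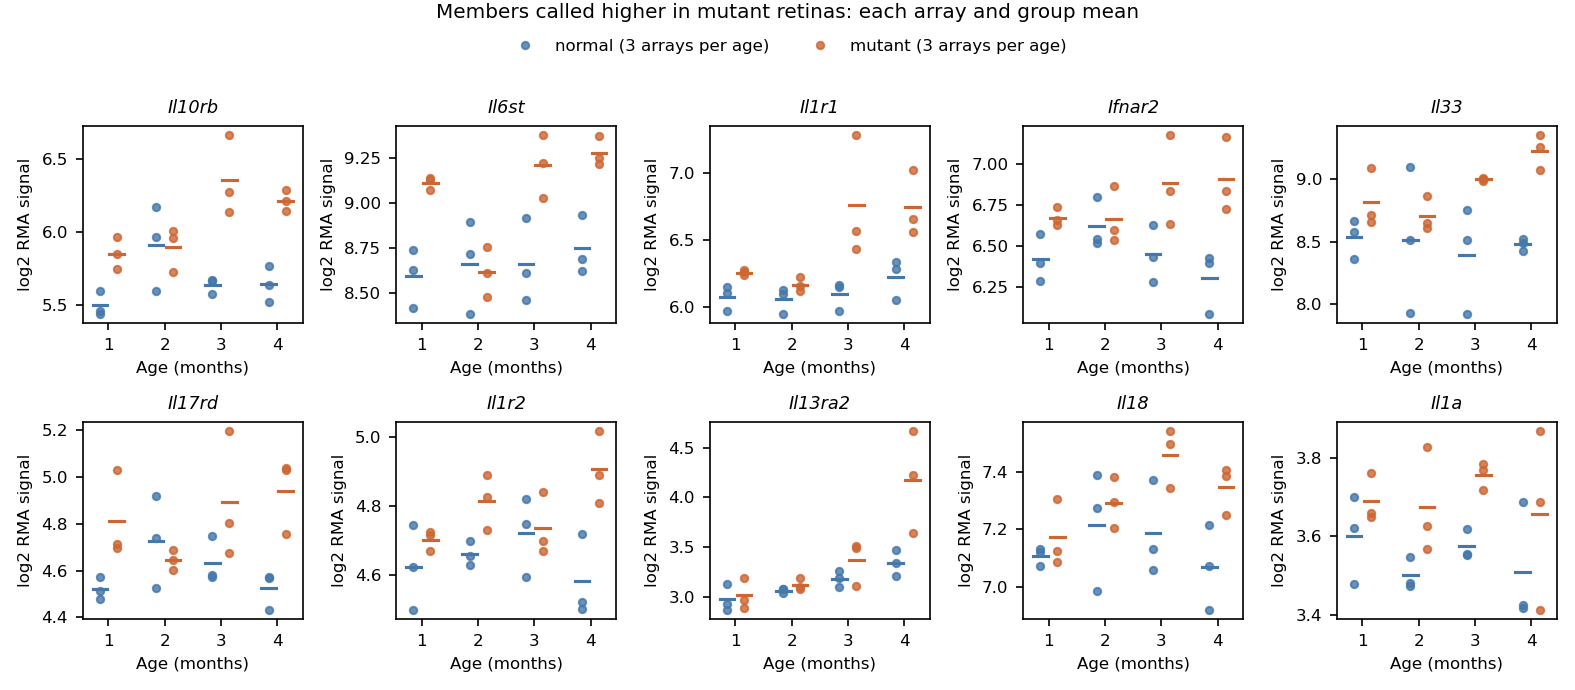
Log2 signal of the 10 members called higher over the 4 ages, on every array (points, 3 per genotype and age) with group means (bars), against age in months; each panel has its own scale. Mutant and normal points separate at 3 and 4 months in Il10rb, Il6st, Il1r1, Ifnar2 and Il33, while in Il13ra2 the mutant arrays leave the normal range at 4 months.

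**Figure D3:**
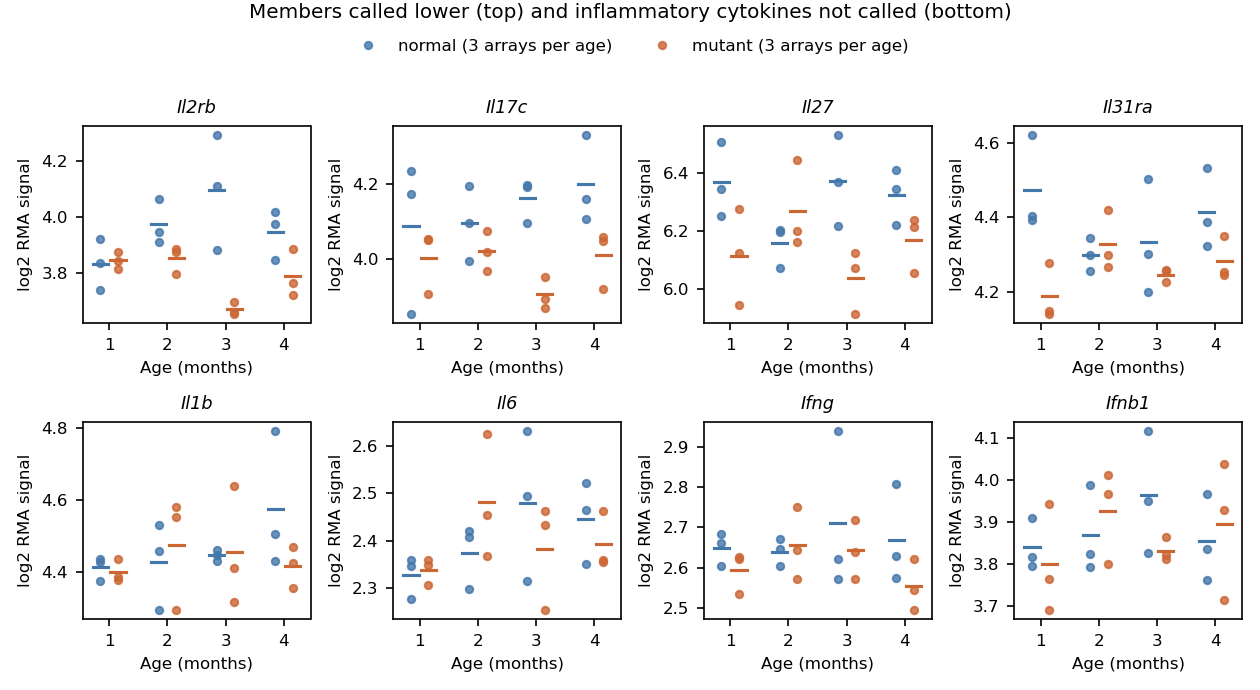
Log2 signal on every array against age in months for the 4 members called lower over the 4 ages (top) and for 4 inflammatory cytokines that were not called (bottom); points are arrays, bars are group means and each panel has its own scale. Il2rb is lowest in the 3-month mutant arrays (3.65 to 3.70), and the arrays of Il1b, Il6, Ifng and Ifnb1 overlap between genotypes at all 4 ages.

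By age, calls appeared at 3 and 4 months. At 1 month no member was called by limma (0.321 percent of all probe sets, 0.241 higher and 0.0803 lower; 9 members had an unadjusted p under 0.05), although 6 members had mutant arrays above all normal ones and 7 below, against 10.4 and 11.7 percent of all probe sets. Of the 6, Il6st, Il10rb, Ifnar2, Il1r1 and Il17rd were also among those called higher over the 4 ages. That comparison includes the 1-month arrays, so the overlap is not independent of it. Il11, a gp130 cytokine, differed by −0.30 ± 0.08 (SE) at this age and was not called (limma adjusted p = 0.0903).

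At 2 months no member was called either (3.45 percent of all, 1.52 higher and 1.93 lower; 8 members with an unadjusted p under 0.05). Mutant arrays lay above all normal ones in 16 members (19.3%; 9.07 percent of all) and below in 1, Il2rb (8.35 percent of all). The members' median difference was 0.06, against 0.01 for all probe sets. Il10rb, Il6st and Il17rd, with differences above 0 at the other 3 ages, had differences of −0.01, −0.05 and −0.08 at 2 months. Of the 3 arrays that stood above 10 in Grifin, 2 belong to this age, as does the array highest in Dcn, and normal 2 months replicate 3 gave the highest value of its group in 8 of the 10 members called higher. No member was called at this age without the 3 arrays with a high Grifin signal or with Grifin and Dcn as covariates. Same-numbered arrays of the genotypes deviated together at 2 months (r = 0.33, 0.66 and 0.25), and with the replicate number as a block at this age no member was called either.

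At 3 months 11 members were called (13.3%; 12 percent of all): Il10rb, Il1r1, Il6st and Ifnar2 higher, and Il2rb, Il1f9, Il12rb1, Il6ra, Il27, Il5 and Il18r1 lower. The 4 rises compare with 6.66 percent of all probe sets (4.82% of members) and the 7 falls with 5.38 percent (8.43% of members). Mutant arrays lay below all normal ones in 23 members (27.7%; 19.4 percent of all) and above in 8 (9.64%; 13.2 percent of all), and the members' median was −0.09 against −0.06 for all. All 4 rises were receptor chains, while the falls were 4 receptor chains and 3 ligands. This count leaned on single arrays: it was 3 without normal 3 months replicate 2, 4 without mutant 3 months replicate 2, 5 without mutant 3 months replicate 3 and 6 without normal 3 months replicate 1. Il10rb, Il1r1 and Il2rb were called at 3 months whichever array was left out. With only the 6 arrays of that age in the fit, Il10rb alone was called.

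At 4 months 8 members were called, all higher (9.64%; 9.47 percent of all): Il13ra2, Il10rb, Ifnar2, Il6st, Il1r2, Il33, Il17rd and Il1r1. Not one fell, where 3.45 percent of all probe sets were called lower, although a further quantile normalization added Ifngr1 as lower. Mutant arrays lay above all normal ones in 12 members (14.5%; 17.1 percent of all) and below in 4 (4.82%; 12.9 percent of all). Without the 3 arrays with a high Grifin signal, 3 members were still called, Ifnar2, Il10rb and Il13ra2. The count was 4 without normal 4 months replicate 1 (losing Il17rd, Il1r1, Il1r2 and Il33) or replicate 3 (losing Il17rd, Il1r2, Il33 and Il6st), and 5 without mutant 4 months replicate 1 (losing Il17rd, Il1r1 and Il1r2).

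**Figure D4:**
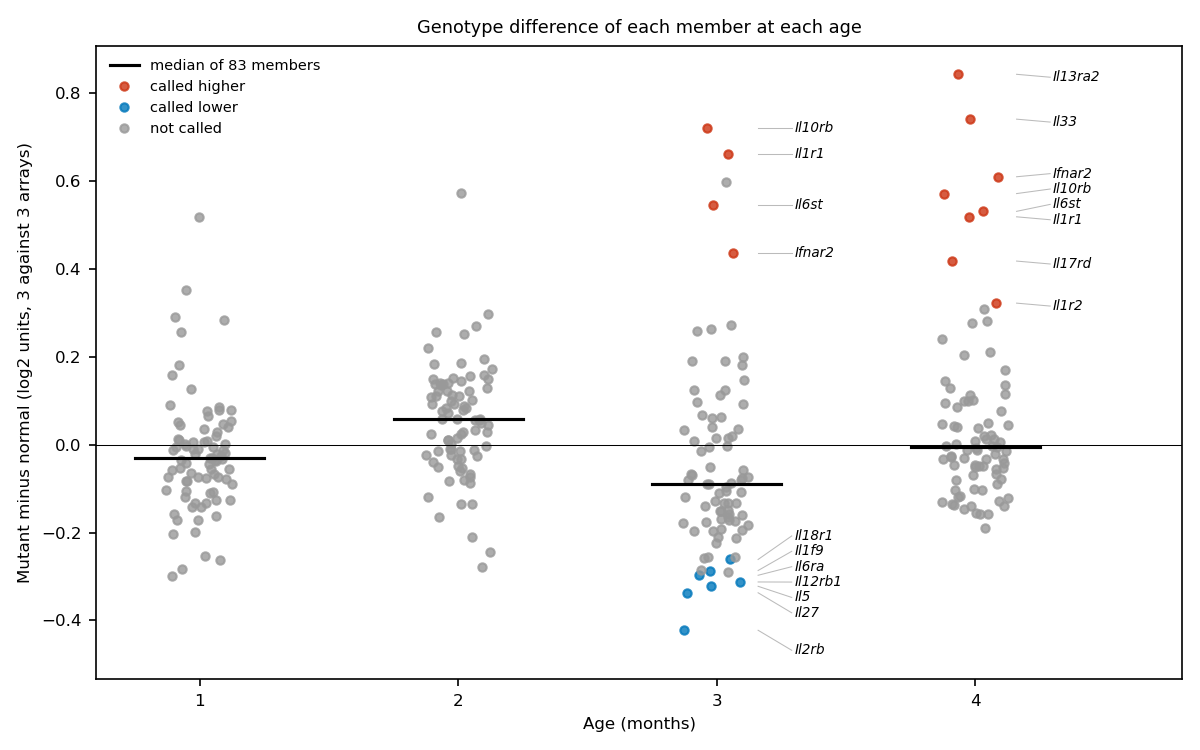
Mutant minus normal difference, in log2 units, of each of the 83 members at 1, 2, 3 and 4 months (3 against 3 arrays); points are members, coloured by call, black bars are medians and names mark the called members. No member is called at 1 and 2 months; 4 rise and 7 fall at 3 months, and 8 rise at 4 months.

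No member passed the F test for a genotype difference that changes with age by limma (0.321 percent of all probe sets; 13 members with an unadjusted p under 0.05), so the difference between the ages was not shown for any single member. Within normal retinas no member changed between 1 and 4 months by limma (0 percent of all; 2 members with an unadjusted p under 0.05). Within mutants Il11 and Ifnlr1 came next after Il13ra2, with 0.28 ± 0.08 and 0.21 ± 0.06 (SE; limma adjusted p = 0.0593 and 0.0662).

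Whether chains of one receptor moved apart was tested on the log2 ratio of the chains. This was done for 25 textbook receptors of 2 different chains, built from 34 members, with an exact permutation test of arrays within ages (160000 regroupings, 2-sided) and adjustment over the 25. Arrays were regrouped freely at 2 months too, so the test ignores that same-numbered arrays deviated together at that age. The comparison was added after the calls above were known, several receptors share a chain, and a ratio shows unequal change without saying which chain changed. The ratio differed between genotypes in 12 receptors: all 9 that hold a chain called alone and 3 of the other 16. The 9 follow in part from those calls. The 22.6 percent of single probe sets that limma called is no background for the 12, because the test, the measure and the adjustment differ. No share was computed for other pairs of probe sets. Whether ratios of these receptors differed more often than ratios of other pairs was therefore not tested.

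The pairs of the shared chains Il6st and Il10rb gave the 6 largest gaps, while those of the shared chain Il17ra were not called and those of the common gamma chain ran from −0.24 to 0.01. Il6st rose against Il6ra by 0.46 ± 0.08 (SE; exact permutation p = 0.0015, adjusted 0.00535), against Il27ra by 0.45 ± 0.08 (0.000513, adjusted 0.00427) and against Il11ra2 by 0.42 ± 0.04 (3.75e-05, adjusted 0.000938). The last of these had the same sign at all 4 ages, from 0.23 at 2 months to 0.52 at 4 months. Il11ra2 belongs to a set of near-identical copies, so its own value is uncertain.

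Il10rb rose against the chain that gives each of its receptors its ligand: by 0.45 ± 0.09 against Il22ra1 (exact permutation p = 0.00171), 0.40 ± 0.07 against Ifnlr1 (0.0011) and 0.36 ± 0.08 against Il10ra (0.00253), with adjusted values of 0.00535, 0.00535 and 0.00631. At 2 months these 3 ratios lay below 0 (−0.11, −0.11 and −0.17), as did those of Il6st against Il6ra (−0.19) and Il27ra (−0.05). Ifnar2 rose against Ifnar1 by 0.35 ± 0.07 (exact permutation p = 0.000438, adjusted 0.00427), at all 4 ages, from 0.10 at 2 months to 0.66 at 4 months. Il1r1 rose against its co-receptor Il1rap by 0.33 ± 0.09 (0.000725, adjusted 0.00453). The signal of Il1rap was low, at the 12.4 percentile of all probe sets.

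In the other direction, Il2rb fell against the common gamma chain Il2rg by −0.24 ± 0.04 (exact permutation p = 0.00155, adjusted 0.00535), as did Il9r by −0.15 ± 0.04 (adjusted 0.0150) and Il7r by −0.13 ± 0.05 (adjusted 0.0328). Il7r gave a low signal, at the 3.29 percentile of all probe sets, and Il9r, Il7r and Il2rg were not called alone. Ifngr1 fell against Ifngr2 by −0.20 ± 0.06 (0.00196, adjusted 0.00545), at all 4 ages, although neither chain was called alone. The other 13 receptors, among them those for IL-18, IL-33 and IL-12, were not called.

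**Figure D5:**
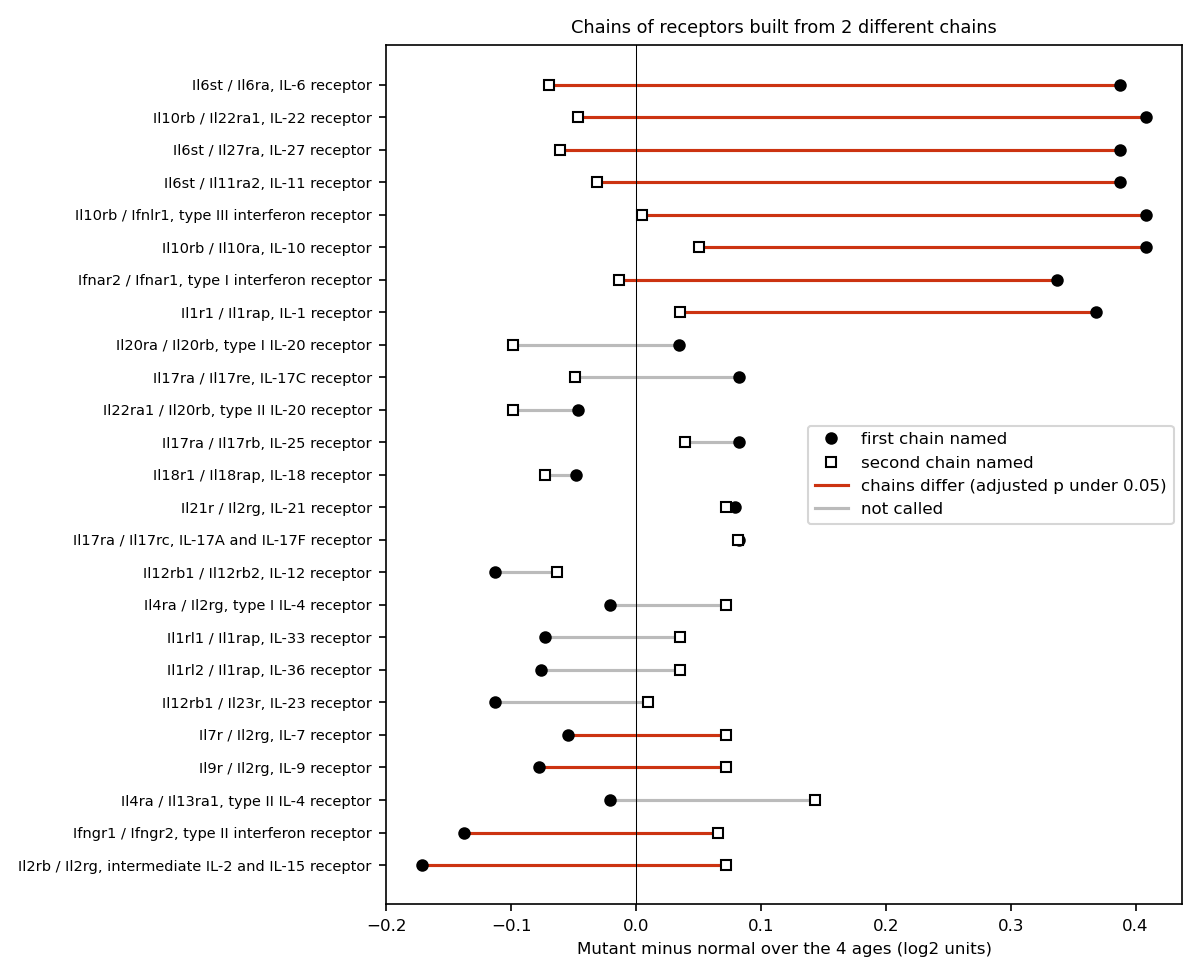
Mutant minus normal difference over the 4 ages, in log2 units, of both chains of 25 receptors; filled circles are the chain named first, open squares the chain named second, and a red line marks an adjusted exact permutation p under 0.05. Il6st, Il10rb, Ifnar2 and Il1r1 lie at 0.34 to 0.41 while their partners lie between −0.07 and 0.05.

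Some of these genes are neighbours in the genome. In the order of protein-coding genes of GRCm38.p6, Ifnar2, Il10rb, Ifnar1 and Ifngr2 follow each other on chromosome 16 without another such gene between them. The first pair rose (0.34 ± 0.07 and 0.41 ± 0.07, SE) while Ifnar1 (−0.01 ± 0.05) and Ifngr2 (0.07 ± 0.05) were not called. On chromosome 1, Il1r2, Il1r1, Il1rl2, Il1rl1, Il18r1 and Il18rap are adjacent in this order, and the first pair rose while the other 4 had differences from −0.08 to −0.05 and were not called. Il6st and Il31ra are adjacent in the same order on chromosome 13 and moved in opposite directions. On chromosome 2, Il1a rose and its neighbour Il1b was not called.

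Cytokines and receptors of related families with other names give the setting. Of 28 such ligands the array measured 5, and Csf1, the growth factor of microglia, was called higher (0.34 ± 0.05, SE; limma adjusted p = 6.4e-05), while Csf2, Csf3, Flt3l and Tgfb1 were not called. Of 26 such receptors 8 were measured and 5 rose: Csf1r by 0.89 ± 0.09, Csf3r by 0.26 ± 0.06, Csf2ra by 0.24 ± 0.07, Csf2rb by 0.20 ± 0.06 and Csf2rb2 by 0.13 ± 0.05, with Kit, Flt3 and Cntfr not called. None of 40 listed signal transducers of these receptors, such as the JAK and STAT genes, was measured.

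Over the 4 ages, some markers of other cell types were also called higher. Among the microglial markers, Cx3cr1 rose by 0.94 ± 0.10, Csf1r by 0.89 ± 0.09, Adgre1 by 0.81 ± 0.10 and Siglech by 0.40 ± 0.07 (SE; limma adjusted p from 7.56e-07 to 0.000146), and Mrc1 was not called (−0.01 ± 0.06). At 2 months no member was called. Of the 10 members called higher over the 4 ages, Il10rb, Il6st and Il17rd had differences below 0 at that age and the others above 0. Of the microglial markers, Cx3cr1 (1.07 ± 0.20, SE; limma adjusted p = 0.00463) and Csf1r (0.76 ± 0.19; 0.0244) were called higher at 2 months. Adgre1 (0.70 ± 0.20; 0.0511), Siglech (0.39 ± 0.13; 0.120) and Mrc1 (−0.20 ± 0.12; 0.462) were not called. For each array, the members in which it read highest of its group were counted, among the 10 called higher. In 6 of the 8 groups the array with the highest count also had the highest summed microglial signal. Among these were mutant 3 months replicate 3 (9.68; 6 members) and mutant 4 months replicate 1 (9.46; 7 members). In the other 2 groups it did not: normal 3 months replicate 2 had the highest signal (8.36) but led in 1 member. Mutant 1 month replicate 1 (8.97) led in 4 where replicate 3 (8.70) led in 6. These are ranks among 3 arrays. They were not counted for members not called or for other probe sets, so no background share stands beside the 6 groups. The 7 measured of 12 endothelial and pericyte markers summed to 7.68 to 7.97 in normal and 7.68 to 8.22 in mutant arrays, with a median difference of −0.02. Of these 7, Mcam and Cd34 were called higher, and Pecam1, Pdgfrb, Cspg4, Sele and Selp, with differences from −0.11 to 0.04, were not called. The growth factor Fgf2, the 1 measured marker of Müller glia, was higher by 0.34 ± 0.05 (limma adjusted p = 6.18e-05), and its difference at 2 months, 0.35 ± 0.10, was not called (0.0608). Of 13 lymphocyte markers Cd2 was measured and not called. The part of these cell types in the members' differences was not tested.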

How the data were processed

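Total RNA from 24 mouse retina samples was extracted with Trizol and hybridised as biotinylated cRNA to an Affymetrix array, per the labels' protocols. The deposited values are log2 signals, which the authors computed by RMA according to the deposited record (per the submitters' processing notes); its version, its steps and the probe annotation are not given in the sources used here. The values ran from 1.9 to 14.17, array medians from 5.15 to 5.34, and nothing was scaled again. Precision is limited by 3 arrays a group.

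The transcript identifier in each probe set name was matched to a table of RefSeq genes (GRCm38.p6): 963 of 1246 probe sets matched 909 genes and 283 stayed unnamed. Several probe sets were present for 7 members, and none of the further ones was called over the 4 ages. The suffixes s, x and a, for probes that may be shared, were carried by 11, 2 and 6 members. The model had 1 mean per group (8 groups) and used limma 3.58.1 in R 4.3.3 (lmFit and eBayes, 16 residual degrees of freedom, prior 4.37), with 2-sided tests and p-values adjusted by Benjamini-Hochberg across all 1246 probe sets of a contrast. Errors are SE of that fit unless named SD, except for the receptor ratios. The SE of a ratio comes from its pooled spread within the 8 groups, without eBayes. Fold is the larger over the smaller group on the linear scale. The fit was tested on simulated data.

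The members, role groups, marker and receptor lists were chosen with earlier results of these data known. Values in full are given for members called over the 4 ages, at 1 age without overlap, or for age, for a few textbook cytokines, and for the member with the smallest p of a role group without calls. The receptor ratios were added after the data were seen and were not recomputed under the alternatives that follow. Alternatives were centring on the array median, quantile normalization again, leaving out probe sets below the 25th percentile, eBayes with an intensity trend or made robust, the replicate number as a block, leaving out 3 arrays with a log2 Grifin signal above 10, Grifin and Dcn as covariates, all probe sets of a gene averaged, only the 6 arrays of an age, and each array left out. Deviations of same-numbered arrays of the genotypes correlated above 0.1 in all 3 pairs at 2 months and in none of the 9 at other ages (r up to 0.08), so the numbers were taken to pair arrays at 2 months only, as a pattern in the data that the labels do not state; a replicate block at that age was added after the data were seen. Promoter windows come from RefSeq.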

Additional observations from a re-analysis of the deposited data

Results flagged for a closer look

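In 5 of the 83 members (6.02%; 3.77% of all probe sets) the 3 mutant arrays lay above the 3 normal arrays at one age and below them at another. None of the 5 passed the F test for a difference that changes with age (limma adjusted p from 0.126 to 0.561). Il5 was higher in mutants at 2 months and lower at 3 months, a swing of 0.619 log2 units. Il12rb1 was higher at 2 months and lower at 3 and 4 months, with swings of 0.449 and 0.241. Il18rap was lower at 1 month and higher at 2 months (0.363), and Il1rn was higher at 2 months and lower at 3 months (0.262). Il1rap was lower at 1 month and higher at 3 months (0.182). In 4 of the 5 the age with higher mutant arrays was 2 months. Mutant arrays lay above all normal ones in 16 members at that age (19.3%; 9.07 percent of all probe sets). The cause of the swings was not tested.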

How the results depend on the processing

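Over the 4 ages, alternatives gave 12 to 17 called members and fits without 1 array 11 to 17, against 14. Ifnar2, Il10rb, Il13ra2, Il17rd, Il1r1, Il2rb, Il33 and Il6st were called in every such analysis that tested them. Il1r2 was lost without the 3 arrays with a high Grifin signal, as was Il1a, and Il31ra was lost with the replicate number as a block, which gave 13 calls over the 4 ages, 9 at 3 months and 8 at 4 months. A replicate block at 2 months only left the 14 calls over the 4 ages and the 0 calls at 2 months as they were, lost Ifnar2 at 3 months (adjusted p = 0.0545) while Il33 was gained there, and gave 2 calls for age within mutants, where Il11 was added. At 1 month centring, quantile normalization and the 6 arrays alone each gave 1 call, Il6st, and fits without 1 array gave 0 to 1. At 2 months quantile normalization gave 1, Ifngr2. At 3 months the covariates gave 7 calls and the 6 arrays alone 1, and fits without 1 array gave 3 to 13. At 4 months leaving out the 3 arrays gave 3 calls, the 6 arrays alone 5, and fits without 1 array 4 to 9. For age within mutants quantile normalization gave 3 calls, the filter at the 25th percentile 0, because it leaves out Il13ra2, and fits without 1 array 1 to 3; for the F test they gave 0 to 1. Il6 changed sign with centring (0.017), quantile normalization (0.011), without the 3 arrays (0.0031) and in fits without 1 array (−0.029 to 0.011), and Ifnb1 with centring (0.0065), quantile normalization (0.021) and in fits without 1 array (−0.037 to 0.0033). The cause was not tested for the other changes. Scalings moved the median of all probe sets by less than 0.1. The arrays carry no detection calls, so low signals such as that of Il13ra2 have no measured distance from background.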

Other observations

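Il15, a cytokine that supports natural killer and memory T cells, varied more between arrays than any other member, from 4.50 to 6.62 in log2 signal (SD over 24 arrays 0.58), and the genotypes overlapped at all 4 ages. At 3 months normal arrays read 6.25, 6.17 and 6.10 and mutant arrays 5.86, 6.62 and 5.37, and at 2 months normal arrays read 4.55, 5.30 and 4.57 and mutant arrays 5.60, 4.65 and 5.90, the largest difference of any member at that age (0.57 ± 0.36, SE; limma adjusted p = 0.487). Its difference over the 4 ages was 0.16 ± 0.18 (SE; limma adjusted p = 0.552).

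Il17d, an IL-17 ligand, differed by 0.27 ± 0.15 (SE) at 2 months, where mutant arrays (8.05, 8.06 and 8.39) lay above normal ones (7.70, 8.01 and 7.98), and by −0.13 ± 0.15 at 3 months, where they overlapped (limma adjusted p = 0.430 and 0.576).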
